A study of Drosophila melanogaster with 6 samples.

Results

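The 200 genes with the highest mean level in control enteroblasts (EBs), the undifferentiated daughters of intestinal stem cells in the adult *Drosophila* midgut, are described here with their levels and ranks in *Sox21a* EBs. They are 200 of the 17321 genes in the table of 19674 transcripts. One transcript was kept per gene, the one with the highest control mean. Mitochondrial transcripts, cytoplasmic ribosomal proteins, rRNA, CR-numbered genes, Cytochrome P450s, Glutathione S-transferases, Jonah proteases and Vacuolar ATPase subunits were left out by symbol, which left 14393 genes, and the 200 highest by the mean of the 3 control libraries were taken. The members were thus selected on the control values, so their levels, ranks and differences from these controls are a description. Calls over all 6 libraries, with or without the replicate block, include the selecting controls and belong to that description. Fits without the selecting library leave out its values, but their direction is still partly fixed by the selection.

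EBs receive Notch signals from stem cells and become mostly enterocytes, the absorptive cells that secrete digestive enzymes, while a smaller lineage gives hormone-producing enteroendocrine cells. *escargot* (*esg*), a Snail-family repressor, marks both stem cells and EBs and holds them undifferentiated. *Sox21a* encodes a Sox transcription factor of these progenitors, and its part in their differentiation is what the study asked about. The most abundant messages of a cell are usually those for translation, the cytoskeleton, energy metabolism and protein folding, beside the products of its own programme.

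RNA-seq was made from EBs sorted by flow cytometry from the anterior midgut of adult females, 3 libraries of *Sox21a* mutant flies and 3 of control flies, each from its own pool of animals kept at 25 °C for 16 to 18 days. All flies of both groups carried *Su(H)GBE-Gal4, UAS-CD8::GFP*, a Notch-responsive driver with a membrane GFP, so the sort selected cells with Notch reporter activity. The mutants were homozygous for a *Sox21a* allele and the controls were *Sox21a/+* by the study's methods, while the sample labels give the controls as wild-type. Messenger RNA was amplified linearly before sequencing, which can favour some transcripts over others. The values are read numbers of single transcripts, each divided by the size factor of its library. The libraries summed to between 38646207 and 45955837 steps in *Sox21a* EBs and between 37286049 and 42961209 in control EBs, where a step is the smallest unit of a library's values. Members stood far above the detection limit of about 5 units. Since reads per transcript grow with transcript length, ranks by reads order the genes by reads and not by molecules.

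Progenitor markers were read in the libraries, without a threshold that would decide EB identity. *Sox21a* was itself a member. Its transcript had 14474, 14697 and 19025 in *Sox21a* EBs, against 14123, 17337 and 16781 in control EBs, and it ranked 173 and 169. The groups overlapped. The alleles described in the study are small deletions that shift the reading frame, so the transcript level is no check of the genotype. Among Notch targets and other progenitor genes, *E(spl)m3-HLH* ranked 1250 in *Sox21a* and 259 in control EBs, *E(spl)malpha-BFM* 949 and 286, the Notch receptor gene *N* 660 and 388, and *hdc* 407 and 406. The lowest log2 fold changes on the list were those of *mira* (-4.63, means of 46.2 and 1015) and *E(spl)mgamma-HLH* (-4.55, 14.6 and 346). *E(spl)mbeta-HLH* (-0.81) was also called lower, and *arm* (0.55) was the 1 call higher. *klu* did not pass, nor did *Stat92E* without the replicate block. The stem cell ligand *Dl* was at 624 in *Sox21a* EBs and 445 in control EBs, ranks 4302 and 4602. No library had *E(spl)m4-BFM* above the detection limit. In bulk samples, fewer cells of a type and less RNA per cell cannot be told apart.

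Of the genes kept, the one with the highest value in control EBs was a translation factor. The genes kept held 52.67%, 51.85% and 51.64% of the values of 1 transcript per gene in *Sox21a* EBs. In control EBs they held 51.15%, 48.88% and 49.58%. *Ef1alpha48D* (FBgn0000556), the elongation factor that brings aminoacyl-tRNA to the ribosome, had 612500, 667460 and 635970 in *Sox21a* EBs and 689220, 803560 and 757510 in control EBs. It ranked first of the genes kept in every library. The next in control EBs was the cytoplasmic actin *Act5C* (FBgn0000042, chromosome X from 5900861 to 5905399 on the Release 6 assembly, as are all positions here), with 147910, 171260 and 181810 in *Sox21a* EBs and 177580, 179590 and 215100 in control EBs, the second in every library as well. Ranks 3 to 10 in control EBs were held by *pAbp*, the poly(A)-binding protein, the translation factor *eIF-5A*, *CG9821*, *Hsp23*, *Hsp83*, the replacement histone gene *His3.3B*, the elongation factor *EF2* and *Tctp*. Control means spanned 14316 to 750095 over the 200 genes, a 52.4-fold range. The 200 genes took 34.9%, 36.0% and 36.1% of the values of the 14393 genes in *Sox21a* EBs, against 41.3%, 44.0% and 42.7% in control EBs, and the 10 highest took between 7.72% and 8.31% in *Sox21a* EBs and between 10.6% and 11.3% in control EBs.

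**Figure D1:**
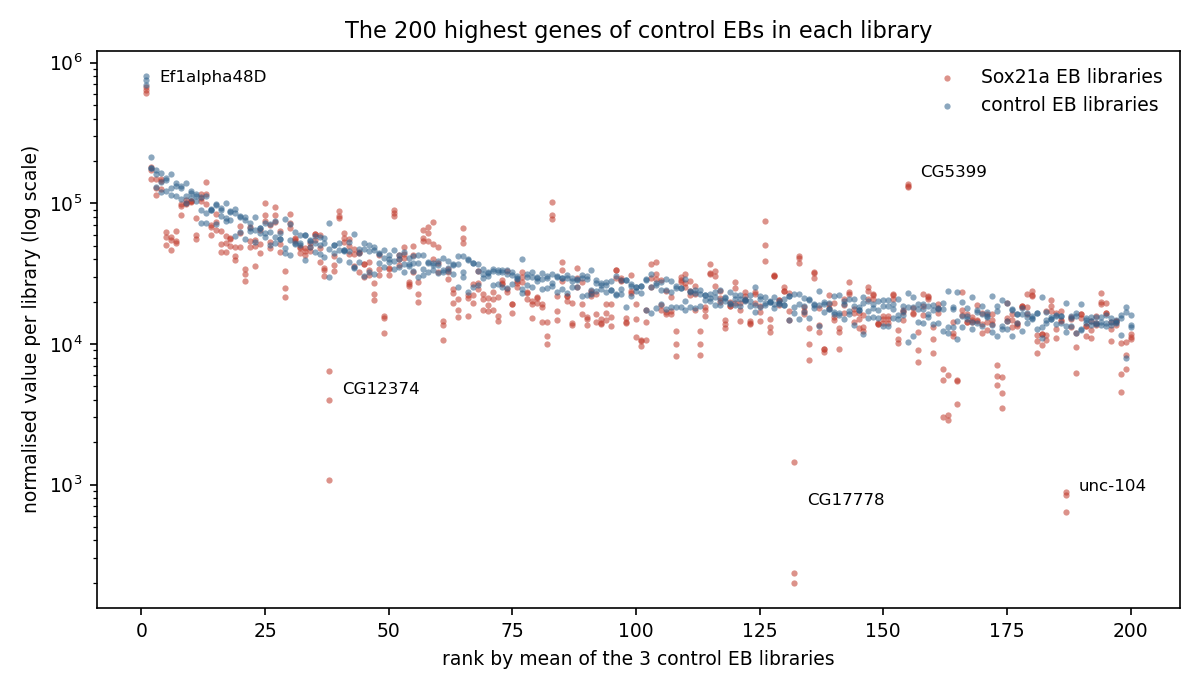
Normalised value of each of the 200 genes in every library (vertical, log scale) against its rank by the control mean (horizontal), with the 3 Sox21a EB libraries in red and the 3 control EB libraries in blue. The control points fall from 803560 at the highest gene to about 14316 at rank 200, and CG5399 stands above, and CG12374, CG17778 and unc-104 stand below, the other red points near their ranks.

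The order above is by reads. To allow for transcript length, levels were also compared between genes per kilobase of annotated transcript, which could be done for 186 of the 200. *Ef1alpha48D* and *eIF-5A* were among the 14 with no matched transcript and have no rank on that scale. Among the matched genes, small heat shock proteins led in control EBs. *Hsp23* (FBgn0001224) had 62430 per kb in *Sox21a* and 159400 per kb in control EBs, ranks 9 and 1, and *Hsp26* (FBgn0001225) had 67850 and 115700 per kb, ranks 6 and 2. *Tctp*, a conserved growth-associated protein, was the third in both groups, at 99820 per kb in *Sox21a* and 112500 per kb in control EBs. The actin-severing cofilin *tsr* had 112700 per kb in *Sox21a* and 62890 per kb in control EBs, ranks 2 and 7. *Uhg7*, a snoRNA host gene, was the fourth in control EBs at 90080 per kb, but all of its transcript lies in exons of the ribosomal protein gene *RpL23A*, so reads of that gene may have been counted for it. Of the 200 genes, 120 were also among the 200 highest per kb in control EBs, and 155 genes were shared by the per-kb top 200 of *Sox21a* and control EBs.

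The members and the 200 genes ranked after them were alike in structure, and both were longer than the genes tested as a whole. The members' kept transcripts had a median length of 2208 bases, against 2248 in the next 200 genes and 1937 over the genes tested. Their genes spanned a median of 4543 bases, against 4314 and 2758, and had a median of 3 annotated transcripts, against 3 and 2. Of the members, 6.45% had a single exon, against 6.63% and 10.2%. Their spread over the chromosomes was close to that of other genes, with 24.6% on 3R against 24.7%, 23.0% on 2R against 20.6% and 16.0% on X against 16.7%. Some lie side by side. *Hsp26*, *Hsp23* and *Hsp27* lie within a short stretch of 3L (from 9376418 to 9385694), the trypsin genes *alphaTry* and *betaTry* on 2R are 1205 bases apart, and the ferritin chains *Fer1HCH* and *Fer2LCH* overlap on 3R. Reads of overlapping genes cannot always be separated: 50 members share exon bases with another gene, 8 of them over at least 50% of the transcript. *CG43675* lies wholly in exons of *CG45050* (*drn*), 92.6% of *CG12262* (*Mcad*) lies antisense to the member *CG7457*, and *CG30497* and *CG45093* had nearly equal values in every library (14093 and 14046 in *Sox21a* replicate 1).

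Replicates were close. The median coefficient of variation over the 200 genes was 11.6% in *Sox21a* EBs and 13.4% in control EBs, and it was above 30% for 8 and 12 genes. Of the 200, 173 were among the 200 highest genes of each single control library. The 3 control libraries shared 177, 178 and 189 of their 200 highest genes with each other, and the 3 *Sox21a* libraries 174, 181 and 186. Between a *Sox21a* and a control library 145 to 155 were shared, with a median of 149 over 9 pairs. Each between-group pair thus shared fewer genes than any pair within a group.

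**Figure D2:**
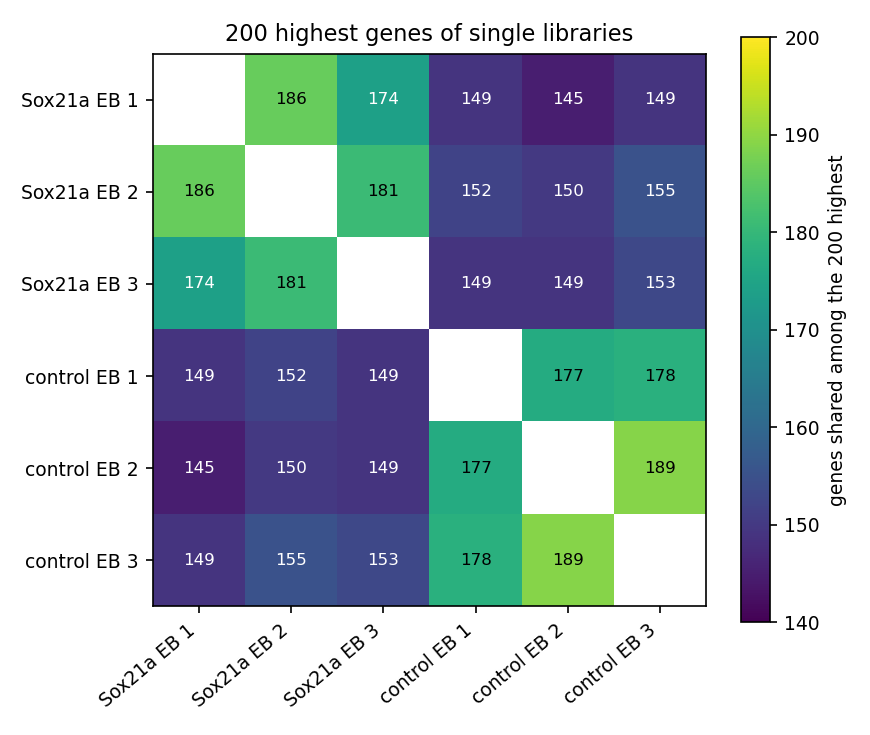
Number of genes shared by the 200 highest genes of each pair of libraries, with the 3 Sox21a EB libraries first and the 3 control EB libraries after them on both axes, and colour for the number shared. The within-group squares hold 174 to 189 and the between-group squares 145 to 155.

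Of the 200 genes, 151 were also among the 200 highest genes by the mean of *Sox21a* EBs and 49 had left. Of those that left, 39 ranked no lower than 400, 10 were past rank 400, and 4 were past rank 1000 (*CG17778*, *unc-104*, *CG12374* and *betaTry*). In *Sox21a* EBs the rank was better for 65 genes, worse for 130 and the same for 5. A list selected at the top of one group tends to rank lower in another, so the direction of these counts is partly fixed by the selection. The values at the edge show how close the boundary was. The last genes inside were *mamo*, *CG2865* and, at a control mean of 14316, *Sam-S*, and the first outside were *Int6* (*eIF3e*) at a control mean of 14249, the enterocyte myosin *Myo31DF* at 14235 and *CG13624* (*REPTOR*).

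**Figure D3:**
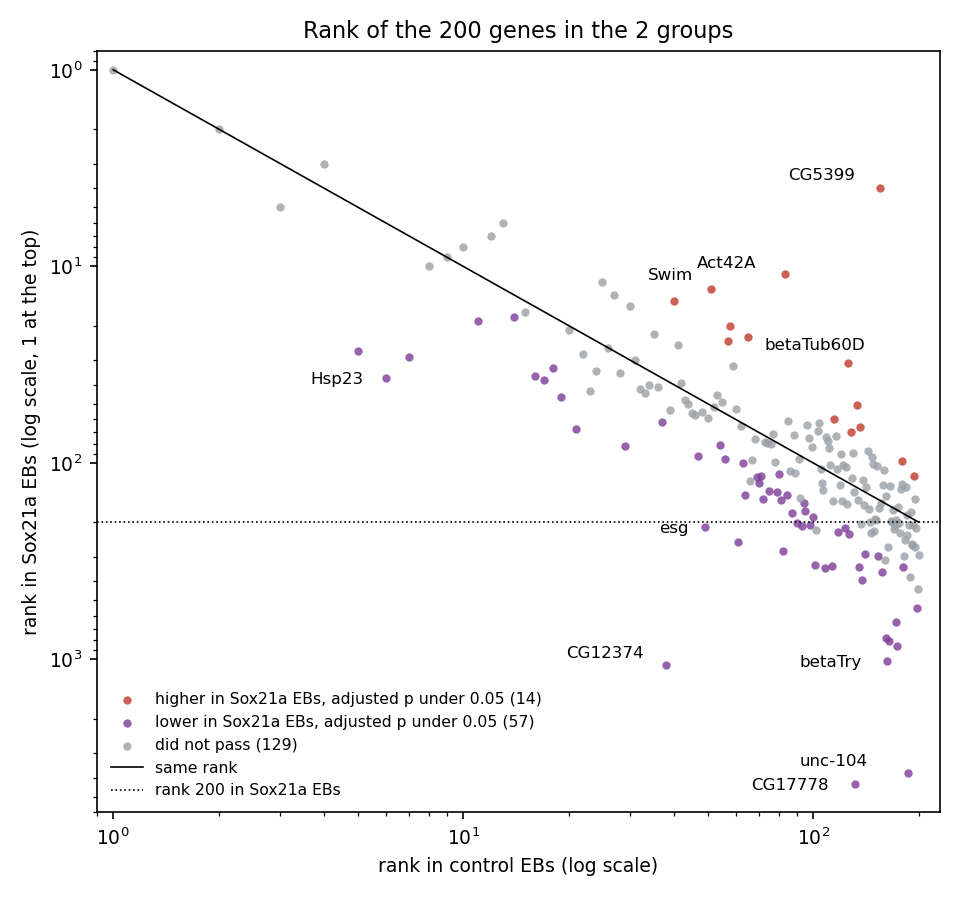
Rank of each of the 200 genes in Sox21a EBs (vertical, log scale, rank 1 at the top) against its rank in control EBs (horizontal, log scale), coloured by the limma call. Points above the solid line rank better in Sox21a EBs, and the 49 points below the dotted line left the 200 highest genes. CG5399 moved to rank 4 against 155 in control EBs, and CG17778 to rank 4294 against 132.

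The calls over all 6 libraries are given first as a description. At an adjusted p under 0.05 (limma on log2(value + 1), Benjamini-Hochberg adjustment over 11400 transcripts), 14 members were higher in *Sox21a* EBs, 57 were lower and 129 did not pass. Over the 8717 genes tested, 24.4% were higher and 9.88% lower. The median log2 fold change was -0.20 over the members and 0.25 over the genes tested. When the libraries were rescaled by medians of ratios over transcripts averaging 100 or more, the medians were -0.39 and 0.06, a shift of 0.19, and 12 members were higher and 73 lower, against 17.2% higher and 14.5% lower of the genes tested. None of the 71 called members changed sign with the rescaling. Ranked on the *Sox21a* mean instead, the 200 highest genes had 50 higher and 30 lower, with a median of 0.11. The 3 libraries of each group did not overlap for 29 members higher and 76 members lower in *Sox21a* EBs (36.5% and 14.4% of the genes tested). The number of lower members was 26 without *Sox21a* replicate 1, 24 without *Sox21a* replicate 2, 28 without control replicate 2 and 32 without control replicate 3, and the number of higher members was 9 without *Sox21a* replicate 1 and 9 without *Sox21a* replicate 2. Fewer genes of any rank were called in those fits, with 6.45%, 6.52%, 6.67% and 6.89% of the genes tested lower in the same order, and 15.3% and 14.7% higher without *Sox21a* replicates 1 and 2. Without *Sox21a* replicate 3, 11 members were higher and 45 lower (15.8% and 8.13% of the genes tested). More genes were called without control replicate 1, with 16 members higher and 68 lower (32.3% and 12.0%).

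The members were then selected on 1 control library and tested in the other 5, for each control library in turn. Selected on control replicate 1, 19 were higher and 62 lower, against 32.2% and 12.0% of the genes tested in that fit. Selected on replicate 2, 11 were higher and 30 lower, against 15.9% and 6.67%. Selected on replicate 3, 15 were higher and 30 lower, against 19.4% and 6.89%. The median log2 fold changes of the 3 selections were -0.23, -0.21 and -0.15, against 0.30, 0.20 and 0.26 over the genes tested. In each selection of 200, the share called higher was thus below that of all genes and the share called lower was above it. A selection on control values favours genes higher in control EBs, so the direction of these shares is partly fixed by it. Of the 173 members at the top of each control library, 8 were higher and 21 lower in all 3 fits (15.0% and 5.99% of the genes tested). Those 173 were chosen on all 3 control libraries, so each of these fits still held libraries that chose them. These calls are thus a description as well. "Rose" and "fell" below refer to these 29, and the adjusted p given for them is the highest of the 3 fits, while fold changes are from all 6 libraries.

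**Figure D4:**
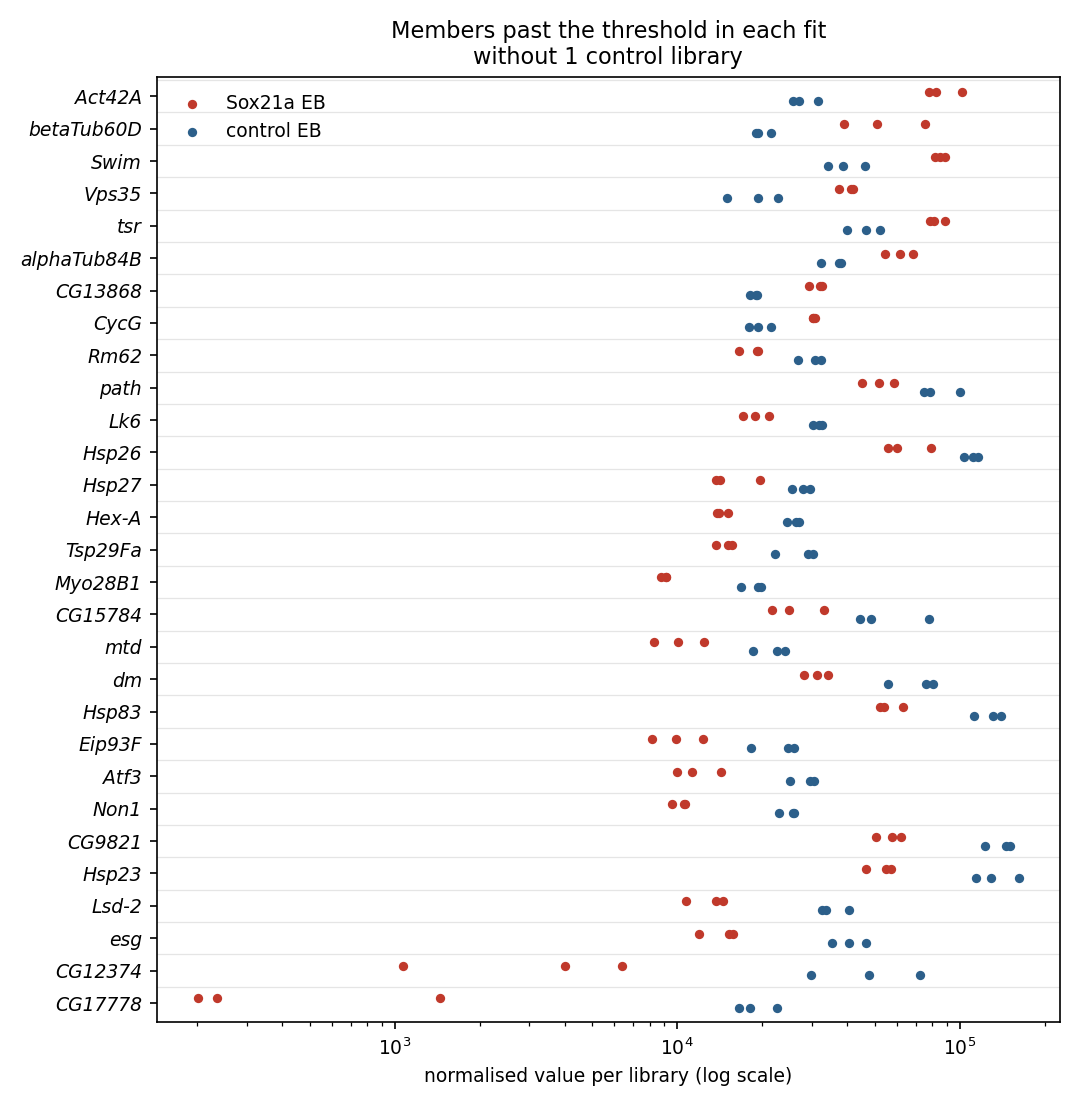
Normalised value per library (log scale) of the 29 members that passed in each fit without 1 control library, with the 3 Sox21a EB libraries in red above the 3 control EB libraries in blue for each gene, ordered by log2 fold change. The 8 genes at the top are higher and the 21 below them lower in Sox21a EBs, and the groups overlap for none of the 29.

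*esg* fell. Its transcript (FBgn0001981) had 11946, 15298 and 15760 in *Sox21a* EBs, against 35410, 46683 and 40655 in control EBs, and ranked 211 and 49. This was a log2 fold change of -1.51 with a standard error of 0.18 (limma adjusted p = 0.00569). Other regulators of transcription fell as well. *dm*, which encodes Myc (FBgn0262656, chromosome X from 3373159 to 3391697), had 31362, 28070 and 34206 in *Sox21a* EBs and 55634, 80427 and 76158 in control EBs (log2 fold change -1.17 with a standard error of 0.19, limma adjusted p = 0.017). It ranked 67 and 21. Exons of *CG12535* and of a noncoding RNA lie in 41.0% and 20.2% of that transcript. The stress-responsive bZIP factor *Atf3* had 10023, 11313 and 14331 in *Sox21a* EBs and 25133, 29458 and 30541 in control EBs (log2 fold change -1.27, limma adjusted p = 0.0115). *Eip93F*, an ecdysone-induced transcription factor, had 8143, 9921 and 12404 in *Sox21a* EBs and 18309, 25884 and 24798 in control EBs (log2 fold change -1.18, limma adjusted p = 0.026). These genes ranked 281 and 341 in *Sox21a* EBs, against 82 and 108 in control EBs.

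In all, 22 members are regulators of transcription or chromatin. Over the 6 libraries 10 of them were called lower, 0 were called higher, and 20 had a log2 fold change below 0, with a median of -0.53 (-0.73 rescaled). Over all genes tested, 24.4% were called higher and 9.88% lower, shares to set beside each count by role or list below. Besides the 4 above, the calls were the stress factor *Xrp1*, the NF-kappaB factor *Rel* of immune signalling, the histone gene *His4r*, the chromatin protein *Df31*, *peb* and *mamo*. With 1 library left out, *His4r* passed only without control replicate 1. *Rel*, *Df31*, *peb* and *mamo* were each lost without *Sox21a* replicate 1 or 2, or without control replicate 2 or 3. The call of *Xrp1* was lost without *Sox21a* replicate 2 or 3, or without control replicate 2. The Fos homologue *kay* had 30991, 33362 and 38003 in *Sox21a* EBs and 32584, 45558 and 50178 in control EBs, and the Nrf2 homologue *cnc* had 20131, 21935 and 22006 against 22894, 29346 and 30822. Neither passed. *Tet* (limma adjusted p = 0.0578) and the forkhead factor *fkh* (0.056) did not pass, but did with the replicate block, at 0.0467 and 0.0309. After rescaling 15 of the 22 were lower. On the list of 43 chromatin and regulator genes tested, 12 of them members, 5 were called higher and 8 lower. With the replicate block 11 were lower, which added *Stat92E*, *Egfr* and *Eip75B* at limma adjusted p-values of 0.0347, 0.0285 and 0.0293.

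Heat shock proteins fell too. *Hsp23* had 54836, 46811 and 57365 in *Sox21a* EBs, against 161970, 129310 and 114600 in control EBs (log2 fold change -1.34 with a standard error of 0.18, limma adjusted p = 0.00748), and ranked 37 and 6. *Hsp83*, the Hsp90 chaperone (FBgn0001233, 3L from 3192969 to 3197059), had 52157, 53874 and 63109 in *Sox21a* EBs, against 131850, 112100 and 139690 in control EBs (log2 fold change -1.18, limma adjusted p = 0.00944), and ranked 29 and 7. The highest *Sox21a* library of each stood well below the lowest control library. *Hsp26* had 59908, 55805 and 79275 in *Sox21a* EBs, against 104010, 111980 and 116410 in control EBs (log2 fold change -0.78, limma adjusted p = 0.0487). *Hsp27*, the third small heat shock protein, had 13724, 14144 and 19652 against 27900, 25428 and 29564 (log2 fold change -0.82, limma adjusted p = 0.0497). The last 2 calls were lost without *Sox21a* replicate 1 or replicate 2, with adjusted p-values of up to 0.0697 and 0.0667. Of 9 members for heat shock and folding, 5 were called lower over the 6 libraries, the fifth being the constitutive *Hsc70-4* (log2 fold change -0.62). The *Hsc70-4* call was lost without *Sox21a* replicate 1 or 2, or without control replicate 2 or 3. The endoplasmic reticulum chaperones did not pass: *Hsc70-3* (BiP) had 17015, 22900 and 14880 in *Sox21a* EBs and 21766, 14689 and 22010 in control EBs, and *Crc* (calreticulin) had a log2 fold change of 0.35. On the wider list of 28 folding and secretion genes tested, 10 of them members, 3 were called higher and 6 lower.

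Translation genes held 26 of the 200 places, and 21 of them did not pass. *pAbp* (log2 fold change -0.24), *eIF-5A* (-0.01), *EF2* (-0.19) and *Ef1alpha48D* (-0.23) kept ranks between 1 and 9 in both groups. The median of the 26 was -0.21, 0 were called higher, 5 were called lower (9 after rescaling), and 22 were below 0. *Non1*, a nucleolar GTP-binding protein of ribosome assembly, fell most in this group, with 9606, 10677 and 10571 in *Sox21a* EBs and 25937, 25626 and 22891 in control EBs (log2 fold change -1.27 with a standard error of 0.15, limma adjusted p = 0.00423). It ranked 332 and 101. *Lk6*, a kinase of the cap-binding factor eIF4E, fell as well, with 17067, 18926 and 21239 against 32463, 31907 and 30340 (log2 fold change -0.73, limma adjusted p = 0.0346). The helicase gene *eIF-4a* was called lower over the 6 libraries (limma adjusted p = 0.0462), but not with the replicate block (0.0525). With 1 library left out, *eIF-4a* passed only without control replicate 1. *Thor*, the 4E-BP that holds back eIF4E, ranked 55 and 48 and did not pass. On the list of 19 translation genes, 16 of them members, 0 were called higher and 2 lower.

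RNA-binding proteins were 17 of the 200. *Rm62*, a DEAD-box helicase, fell to 16586, 19131 and 19291 in *Sox21a* EBs, against 26691, 30705 and 32272 in control EBs (log2 fold change -0.70, limma adjusted p = 0.0462), a call that was lost without *Sox21a* replicate 1 (0.058). Another 6, *Imp*, *shep*, *Unr*, *Syp*, *Tis11* and *yps*, were called lower over the 6 libraries with log2 fold changes between -0.93 and -0.61. Each of these 6 calls was lost without *Sox21a* replicate 1 or 2, or without control replicate 2 or 3. *AGO2*, the siRNA Argonaute, was the 1 call higher, at 19101, 19718 and 23048 in *Sox21a* EBs and 13670, 14334 and 15497 in control EBs (log2 fold change 0.51). It did not pass after rescaling, nor with any 1 library left out. The miRNA Argonaute *AGO1* had 10647, 14207 and 17319 against 17438, 28277 and 28737 and passed with the replicate block but not without it (adjusted p = 0.0149 and 0.052).

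The cytoskeleton and adhesion genes, 33 of the 200, divided. *Act42A*, the other cytoplasmic actin (FBgn0000043, 2R from 6013910 to 6015689), rose to 77781, 82343 and 102170 in *Sox21a* EBs, against 26990, 25832 and 31579 in control EBs, a 3.11-fold ratio of means (log2 fold change 1.63 with a standard error of 0.17, limma adjusted p = 0.00317). It ranked 11 and 83, while *Act5C* kept its rank with a log2 fold change of -0.19. *betaTub60D*, a tubulin, rose to 39053, 50906 and 75193, against 19402, 18985 and 21453 (log2 fold change 1.41 with a standard error of 0.25, limma adjusted p = 0.0202). *alphaTub84B* rose to 54391, 61798 and 68341, against 38009, 32231 and 37454 (log2 fold change 0.77, limma adjusted p = 0.0388). *tsr* rose to 78725, 81047 and 88701, against 39825, 46602 and 52252 (log2 fold change 0.85, limma adjusted p = 0.025). All 4 stayed higher after rescaling. The profilin gene *chic* had 53424, 57072 and 61240 in *Sox21a* EBs and 45728, 46271 and 46552 in control EBs, groups that did not overlap, and was not called (log2 fold change 0.31).

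Other genes of this group were lower. *Myo28B1*, an unconventional myosin, fell to 9144, 9149 and 8741 in *Sox21a* EBs, against 16880, 19374 and 19764 in control EBs (log2 fold change -1.05 with a standard error of 0.14, limma adjusted p = 0.00956). Those called lower over the 6 libraries were the calponin-like *Chd64*, the nesprin *Msp300*, *cindr*, the tropomyosin *Tm1*, *alpha-Spec*, the laminin chain *LanA*, *trio*, *Vrp1*, *unc-104* and *Myo28B1*. With 1 library left out, *cindr*, *alpha-Spec* and *trio* passed only without control replicate 1. *Chd64*, *Msp300*, *Tm1* and *LanA* were each lost without *Sox21a* replicate 1 or 2, or without control replicate 2 or 3. *unc-104*, a kinesin known for synaptic vesicle transport (FBgn0267002, 2R from 16751503 to 16772671), had 844, 883 and 639 in *Sox21a* EBs, against 19595, 13350 and 12234 in control EBs (log2 fold change -4.24, standard error 0.23). It ranked 3762 and 187, and was not among the 200 highest of control replicates 2 and 3. The actin regulator *Vrp1* had 5092, 5894 and 7050 against 11327, 17096 and 18662 (log2 fold change -1.36). On the list of 35 cytoskeleton and adhesion genes, 16 of them members, 10 were called higher and 3 lower. The shares over all genes tested were close to these, at 24.4% and 9.88%.

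Energy, metabolism and redox genes (23 members) had a median log2 fold change of 0.18, and -0.02 after rescaling. The ADP/ATP translocase *sesB*, with 104530, 109790 and 116020 in *Sox21a* EBs and 71871, 90224 and 111460 in control EBs, and the ATP synthase subunits *CG1746* (*ATPsynC*), *blw* and *ATPsyn-beta* ranked between 6 and 16 in *Sox21a* EBs and between 12 and 30 in control EBs. None of these passed. The mitochondrial channel *porin* was called higher over the 6 libraries, with 53558, 56416 and 64642 against 30981, 34209 and 42577 (log2 fold change 0.70). With 1 library left out, *porin* passed only without control replicate 1 or 3. Of the 23, 4 were called lower over the 6 libraries. *Lsd-2*, a perilipin of lipid droplets (FBgn0030608, X from 15069127 to 15076220), fell to 14536, 13696 and 10731, against 40685, 33786 and 32581 (log2 fold change -1.46 with a standard error of 0.18, limma adjusted p = 0.0049), and ranked 252 and 61. The hexokinase *Hex-A* fell to 15149, 13819 and 14120, against 27055, 26389 and 24554 (log2 fold change -0.86, limma adjusted p = 0.016). *Acsl*, an acyl-CoA synthetase, and *CG12262* (*Mcad*) were the other 2, and *Acsl* did not pass with any 1 library left out. The call of *CG12262* was lost without *Sox21a* replicate 1 or 3, or without control replicate 2. The glycolytic enzymes *Gapdh2* (log2 fold change 0.01) and *Ald* (-0.19) were not called. On the list of 41 energy genes, 7 of them members, 16 were called higher and 1 lower. On that of 26 redox genes, 2 of them members, 13 were higher and 4 lower. The shares over all genes tested were 24.4% and 9.88%.

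Of 16 signalling genes, 1 was called higher and 1 lower over the 6 libraries (24.4% and 9.88% of all genes tested). The 14-3-3 proteins ranked 12 (*14-3-3epsilon*) and 39 (*14-3-3zeta*) in *Sox21a* EBs and 25 and 42 in control EBs, and neither passed. *CycG*, a cyclin, rose to 30393, 30879 and 30232, against 17977, 19321 and 21559 (log2 fold change 0.64, limma adjusted p = 0.0463), but did not pass without *Sox21a* replicate 1 or 2 (up to 0.0693). The JNK phosphatase *puc*, itself a target of JNK, was called lower over the 6 libraries, with 14006, 14385 and 15183 against 18175, 28279 and 28633 (log2 fold change -0.76). With 1 library left out, *puc* passed only without control replicate 1. *Socs36E*, a target and inhibitor of JAK/STAT signalling, had 31183, 28848 and 38292 in *Sox21a* EBs and 18131, 26355 and 27251 in control EBs (log2 fold change 0.47) and was not called. The catalytic subunit of protein phosphatase 2A, *mts*, passed with the replicate block but not without it (adjusted p = 0.0414 and 0.0629).

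Of 14 genes for trafficking, lysosomes and ubiquitin, *path*, an amino acid transporter, fell to 58402, 45018 and 51819 in *Sox21a* EBs, against 100770, 74876 and 78676 in control EBs (log2 fold change -0.71). Its adjusted p was just under the threshold in 1 of the 3 fits, and 0.0989 at most without a *Sox21a* library. *Vps35*, a retromer subunit, rose to 42006, 37453 and 41142, against 14987, 19387 and 22763 (log2 fold change 1.10, limma adjusted p = 0.0171). That was its transcript RB. The transcript RA had 2261, 2462 and 2862 in *Sox21a* EBs and 2296, 2504 and 2750 in control EBs. *Vps35* shares 70 exon bases on the opposite strand with its neighbour *Swim*, which encodes a secreted Wnt-binding protein and rose to 89002, 81856 and 85306, against 34112, 38738 and 46404 (log2 fold change 1.11 with a standard error of 0.17, limma adjusted p = 0.0113). The pair may share reads and is uncertain as 2 observations. The lysosomal protease *cathD* was called higher over the 6 libraries (log2 fold change 0.56) but not after rescaling. Its call was also lost without *Sox21a* replicate 1 or 2, or without control replicate 2. The GTPase *Ran* passed with the replicate block but not without it (adjusted p = 0.0486 and 0.0792).

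**Figure D5:**
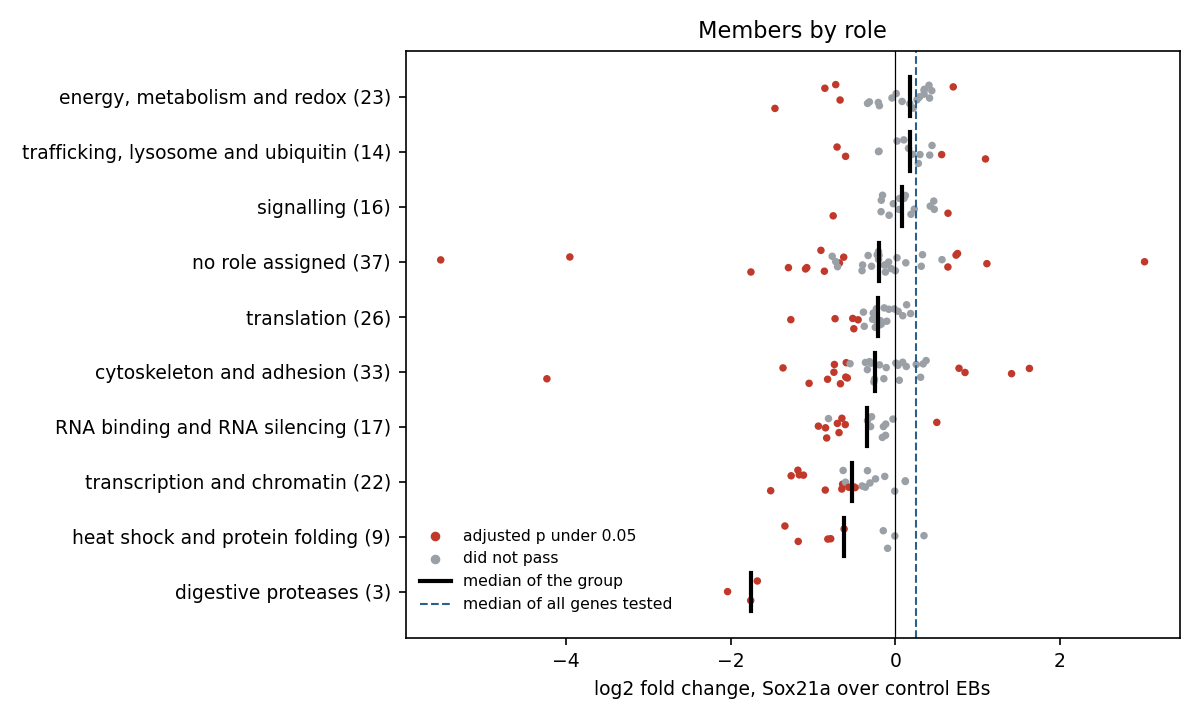
Log2 fold change of each of the 200 genes, Sox21a over control EBs (horizontal), by role with the number of genes, red where the adjusted p over the 6 libraries was under 0.05. The black bars are group medians, between -1.76 for the 3 digestive proteases and 0.18 for energy, metabolism and redox, and the dashed line is the median of all genes tested at 0.25.

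The digestive proteases showed the lowest median of any role. The trypsins *betaTry* (2893, 3124 and 5976 in *Sox21a* EBs, against 13115, 23928 and 11950 in control EBs) and *alphaTry* (3759, 5493 and 5505 against 10848, 23588 and 14545) and the serine protease *yip7* (4505, 3479 and 5834 against 12672, 20697 and 13509) had log2 fold changes between -2.04 and -1.68. The *Sox21a* and control libraries did not overlap for any of them, and control replicate 2 was the highest for each. None of the 3 was among the 200 highest genes of each control library, so they stand as a description and are not said to have fallen. *Bace*, at 3019, 5501 and 6674 against 12308, 17621 and 19665, had a log2 fold change of -1.75 and the same limit. The enterocyte list summed to between 23900 and 32330 in *Sox21a* EBs and between 44940 and 79300 in control EBs. Both trypsins, selected for high control values, are on it and make up much of the control sum. That sum is thus no separate observation from theirs. Of 20 genes tested, 2 were called higher and 9 lower, both trypsins among the lower. With the replicate block 6 were lower, without *Myo31DF*, *Amy-d* and *CG5322*, at limma adjusted p-values of 0.0577, 0.0643 and 0.0888. The log2 fold change of *nub* was -1.70. On this list *iotaTry*, *zetaTry* and *Npc2d* were near or below the detection limit. On the list of 52 genes for digestion and nutrient transport, 5 were called higher and 10 lower, against 24.4% and 9.88% of all genes tested. The part of enterocyte RNA in these differences was not tested.

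Lists written as markers of other cells moved as well. The enteroendocrine list summed to between 8490 and 13800 in *Sox21a* EBs and between 3420 and 3704 in control EBs, with 8 of 13 genes tested called higher and 1 lower. The tracheal list summed to between 6108 and 7156 in *Sox21a* EBs and between 1655 and 1814 in control EBs, with 4 of 6 higher. Its sum was carried by the matrix metalloproteinase gene *Mmp2* (3236 in *Sox21a* and 132.5 in control EBs) and the FGF receptor gene *btl* (1889 and 767), which are not specific to trachea in these guts. The tracheal cuticle gene *Gasp* was at 314 in *Sox21a* and 2.81 in control EBs. The haemocyte list was low in both groups, at 152 to 194 in *Sox21a* EBs and 395 to 603 in control EBs, with *He* above the detection limit in 0 of 6 libraries. Of 16 visceral muscle genes, 5 were tested and 1, the member *Tm1*, was called lower, and *Mhc* was at 5.61 and 4.56. Of the 17 progenitor genes tested, 1 was called higher and 6 lower (9 with the replicate block, which added *N*, *Stat92E* and *E(spl)m2-BFM* at adjusted p-values of 0.0451, 0.0347 and 0.0196), and their sum was between 65280 and 85530 in *Sox21a* EBs and between 106100 and 137900 in control EBs. No gene of the enteroendocrine, haemocyte or tracheal lists is a member. The part of these cells in the members' differences was not tested.

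Some of the largest shifts in rank belonged to genes with no role assigned here, 37 of the 200. *CG5399* (FBgn0038353, 3R from 15695241 to 15697142) had 136930, 133600 and 130260 in *Sox21a* EBs, against 10347, 18429 and 22897 in control EBs, a 7.76-fold ratio of means. It ranked 4 and 155. The log2 fold change was 3.03 (standard error 0.29) and between 2.70 and 3.27 with each library left out in turn, given as a description. It was not among the 200 highest genes of control replicate 1, where it ranked 274. *CG17778* (FBgn0023534, X from 494614 to 496369) fell to 1447, 201 and 236 in *Sox21a* EBs, against 22522, 16594 and 18172 in control EBs, with control EBs at 30.4 times the *Sox21a* mean (log2 fold change -5.53 with a standard error of 0.70, limma adjusted p = 0.00612). *Sox21a* replicate 1 was several times above the other 2, and the log2 fold change was -6.44 without it. The rank was 4294 against 132. *CG12374* (FBgn0033774, 2R from 12762113 to 12763825) fell to 1073, 6378 and 3996, against 47719, 72266 and 29735 (log2 fold change -3.96 with a standard error of 0.65, limma adjusted p = 0.0158). Leaving out each library gave between -4.50 and -3.21. It ranked 1063 and 38.

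Of the genes with the most reads, *CG9821* (FBgn0037636), the fifth by reads in control EBs and without a rank per kb, fell to 50549, 57669 and 62156, against 122860, 151030 and 145520 (log2 fold change -1.30 with a standard error of 0.16, limma adjusted p = 0.00671). It ranked 27 and 5. *CG15784* fell to 33005, 24903 and 21636, against 77647, 48396 and 44378 (log2 fold change -1.08, limma adjusted p = 0.0398), a call lost without *Sox21a* replicate 2 or 3 (up to 0.0667). *mtd* (log2 fold change -1.09) and the tetraspanin *Tsp29Fa* (-0.86) fell too, though 62.4% of the *Tsp29Fa* transcript lies antisense to a noncoding RNA. *CG13868* rose to 32701, 32137 and 29246, against 18987, 18085 and 19245 (log2 fold change 0.74, limma adjusted p = 0.0277). *CG17765* (*Pef*) was called lower over the 6 libraries (limma adjusted p = 0.0349) but not with the replicate block (0.0542), and *CG43693*, *Lrch*, *CG2865* and the cytoskeletal linker *shot* did not pass but did with it, at 0.0184, 0.0295, 0.0469 and 0.0414.

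In place of the 49 genes that left, 49 entered the 200 highest genes of *Sox21a* EBs. The 5 ranked highest were *CG32368*, with 38529, 36913 and 54128 in *Sox21a* EBs and 9010, 10857 and 21110 in control EBs (ranks 47 and 212), *CG15347* (58 and 241), *Arc1* (68 and 242), *Akap200* (85 and 524) and *CG16817* (*p23*, 86 and 204). *Akap200*, an anchor of protein kinase A, had 20871, 23650 and 29497 in *Sox21a* EBs and 7039, 6015 and 6570 in control EBs (log2 fold change 1.90). Ranked on the control mean, genes further down were called higher more often, an order partly fixed by that ranking. Of the next 200 genes in control EBs, 13.5% were called higher and 19.5% lower, and of the 2000 genes up to rank 4000, 23.2% and 7.35%. Of the 200 members 14 were called higher and 57, or 28.5%, lower. Ranked on the mean of all 6 libraries, the first 200 had 28 higher and 46 lower, and the next 200 had 55 higher and 26 lower. Further down that ranking the share called higher did not grow, with 27.0% at ranks 401 to 1000 and 23.4% at ranks 4001 to 8000.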

How the data were processed

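Bowtie2 was used by the authors to align read pairs (genome release 6.02), and pairs within exons were counted and divided by size factors. The deposited values are therefore a signal, normalised reads per transcript. Every value is a whole multiple of its library's step and none is below 2 steps, so raw counts were not recovered and count models were not run. A second deposited table holds the authors' means, variances, fold changes and p-values, and was not used. The number of per-sample columns left out was 0. Whether strand was used in counting is not given in the sources used here.

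Transcripts with a mean of at least 10 (11400) were tested with limma 3.58.1 (R 4.3.3) on log2(value + 1), with Benjamini-Hochberg adjustment, a scale that understates changes of low genes. With 3 libraries against 3, an exact permutation test cannot go below 0.1. Same-numbered libraries deviated together (correlations of 0.171, 0.129 and 0.124 across transcripts), while *Sox21a* replicate 2 and control replicate 3 had 0.051. They may thus be paired by number, which the labels do not state. The main fit had no block, and fits with the replicate number as a block were run beside it. The blocked value is given where it changes a member's call, while changes on the gene lists are given mostly as counts. Fits that left out 1 library had no block either, so the adjusted p given for genes that rose or fell ignores any such pairing. The limit of detection is 5 steps and covers counting error only. Genes named are the 10 highest members by reads and per kb, the 10 largest rises and 10 largest falls with groups apart, the edge of the list, listed genes, the 5 highest entrants and progenitor markers. Genes called by role, with the block or in held-out fits were named after their values were seen. Members, roles and lists were chosen with earlier results of these data known. Positions and lengths are from Ensembl release 115, on the Release 6 assembly the authors also used (187 members matched). Rescaling used transcripts with a mean of at least 100. Scripts were tested on simulated data and ran in Python 3.11.15 (numpy 2.4.6, pandas 2.3.3; figures, matplotlib 3.10.9).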

Additional observations from a re-analysis of the deposited data

How the results depend on the processing

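Pseudocounts of 0.1 and 10, no filter or a mean of at least 100, a limma trend and 1 transcript per gene kept the members' counts within 1.5 times of 14 higher and 57 lower. With the replicate block 16 were higher and 62 lower (26.4% and 10.6% of the genes tested). Rescaled with that block (a setting added once the data had been seen), 10 were higher and 73 lower (17.3% and 14.8%). Leaving out each library gave 9 to 16 higher and 24 to 68 lower, a median log2 fold change of -0.26 to -0.14, and 150 to 154 members still among the 200 highest of *Sox21a* EBs. Over the genes tested, the shares in those fits also varied, from 14.7% to 32.3% higher and from 6.45% to 12.0% lower. A 2-fold minimum left 5 higher and 21 lower (12.3% and 5.78% of the genes tested), and an adjusted p under 0.01 left 7 and 21 (11.6% and 4.70%). Selecting the genes on the mean of all 6 libraries gave 28 higher, and on the *Sox21a* mean 50 higher and 30 lower, where the median turned to 0.11. Selected on single control libraries, 11 to 19 were higher and 30 to 62 lower. Rescaling moved the members' median to -0.39. Of 62 named genes tested, the block ended 2 calls and added 4, and rescaling ended 1 and added 5. On the gene lists, the block also moved the counts to 7 higher of the enteroendocrine list, 20 of the energy list and 9 higher and 4 lower of the cytoskeleton list, 7 lower of the folding list, 6 higher of the digestion list, 5 lower of the redox list and 1 lower of the translation list. The count tests planned as alternatives were not run, since whole reads could not be recovered. The cause of these differences was not tested.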
